A study of Mus musculus with 8 samples.

Results

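Fc receptors are the proteins through which cells bind the constant part of antibodies. The 7 mouse Fc receptor genes described here are Fcgr1, Fcgr2b, Fcgr3, Fcgr4, Fcer1g, Fcer1a and Fcgrt. They were chosen by name, and each was read by 1 probe set whose platform annotation names that gene alone, so 7 of the 23521 such probe sets, and 7 of the 22180 genes tested, are members. Their levels come from 8 microarrays of conventional dendritic cells (cDC) bearing CD103 and CD11b, which were isolated by flow cytometry. The mice were male C57BL6 on control chow, 8 weeks of age, and the cells came from their mesenteric lymph nodes. On the 4 transgenic arrays (TG) the mice carried hBcl-2, a transgene for the human apoptosis inhibitor BCL2 driven by the CD11c promoter. That promoter is active in dendritic cells and in some other cells that bear CD11c. On the 4 wild-type arrays (WT) the mice were littermates. For each genotype 2 to 3 samples were pooled, with no record in the labels of the animals behind each array. The p-values therefore speak only of the spread between arrays.

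In mice the activating receptors for IgG are encoded by Fcgr1, Fcgr3 and Fcgr4. They signal through a shared adaptor, the FcR gamma chain encoded by Fcer1g, whose ITAM motif recruits the kinase Syk. Fcgr2b encodes the inhibitory receptor, whose ITIM motif recruits the phosphatase SHIP. Fcer1a encodes the IgE-binding chain of the high-affinity IgE receptor. Fcgrt encodes the heavy chain of the neonatal receptor FcRn, which pairs with beta-2-microglobulin and works inside the cell. FcRn rescues IgG and albumin from breakdown in lysosomes, and in dendritic cells it also routes IgG immune complexes toward antigen presentation.

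On the log2 scale of the deposited values, the arrays had medians over all probe sets of 5.04 to 5.15. The highest median and the narrowest spread were those of transgenic replicate 4. Its SD over all probe sets was 2.00, against 2.07 to 2.11 on the other arrays. How far this lowers its levels of bright genes was not tested on its own, and a run with quantile normalization again is given below for Fcer1g. Transgenic replicate 4 was least like the rest of its group: its correlation with them averaged 0.970, while the other transgenic arrays had 0.977 to 0.979 and the wild-type arrays 0.983 to 0.985. Of 15 markers of CD11b+ cDC, 13 lay above the dim level in at least one group, among them Itgax, which encodes CD11c (9.22 in TG, 9.05 in WT). Itgam, which encodes CD11b, lay only a little above that level (5.58 in TG, 5.57 in WT). Clec10a and Mgl2 were dim. A level is called dim below 5.35, the 95th percentile of the mean levels of 1394 olfactory and vomeronasal receptor genes on these arrays. Human BCL2 was not analysed here, so the genotype labels were not checked against it.

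Of the 7 Fc receptor genes, Fcgrt rose in transgenic cDC, 0 fell and 6 did not pass the test. For comparison, 1.69% of all 22180 genes passed, 0.839% being higher and 0.848% lower in transgenic cells. Passing means an adjusted p below 0.05 in limma, and rose and fell are used only of genes that passed. Fcgrt, Fcer1g and Fcgr3 lay above the dim level in both groups, Fcgr1, Fcgr4 and Fcer1a were dim in both, and Fcgr2b lay above it only in wild type. The median log2 difference was 0.01 over the 7 genes and -0.00 over all genes tested. The groups did not overlap for 1 of the 7 genes, against 8.94% of all genes (4% higher and 4.94% lower in transgenic cells).

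**Figure D1:**
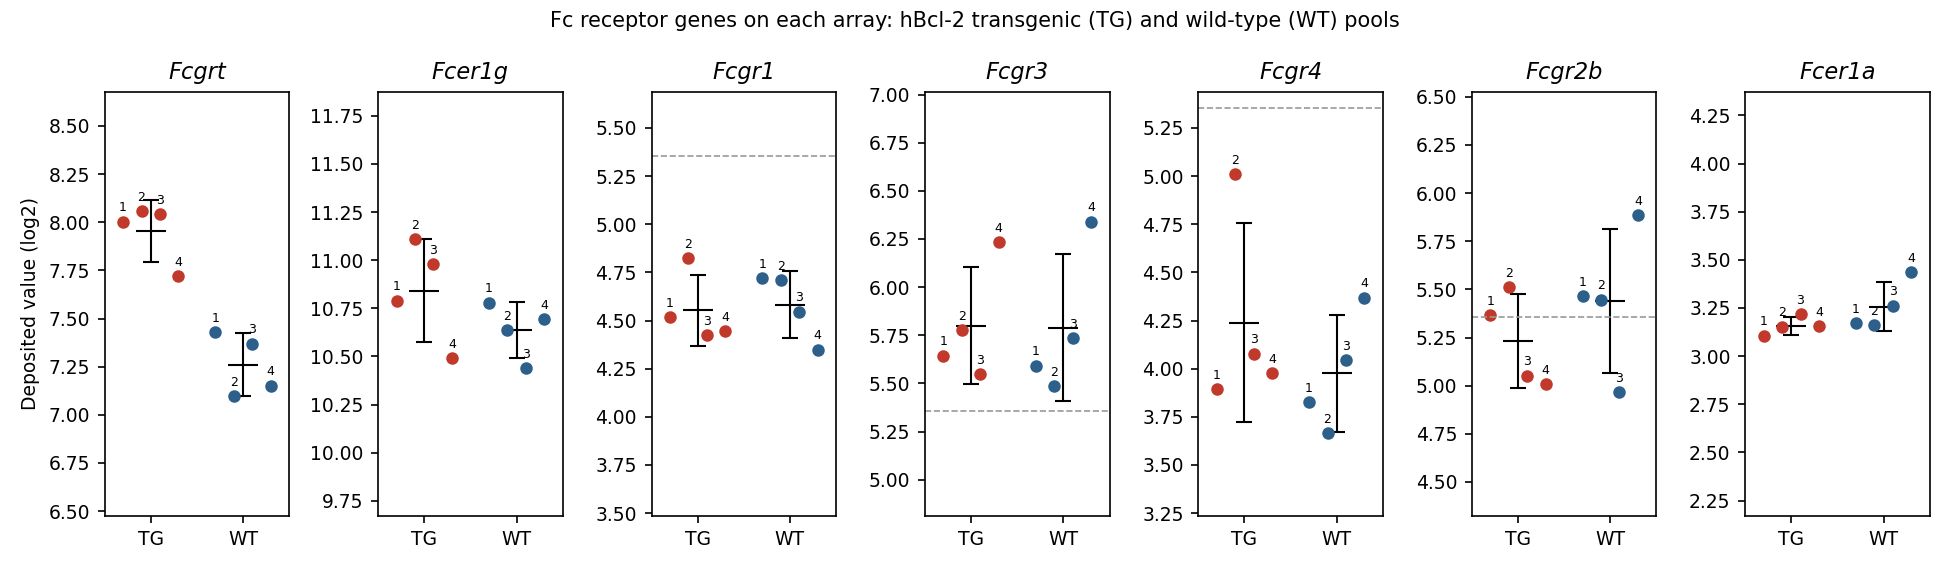
Deposited log2 value (y axis) of each Fc receptor gene on the 4 transgenic (TG, red) and 4 wild-type (WT, blue) arrays. The number at a point is the replicate, bars are the mean ± SD, the dashed line is the dim level of 5.35 where it falls in the panel, and all panels span the same log2 range around their own centre. For Fcgrt the lowest transgenic array (7.72) lies above the highest wild-type array (7.43), and for the other 6 genes the groups overlap.

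The start regions of 4 members are shown so that genes above the dim level can be read beside dim ones. Each sequence runs from 250 bases before to 50 bases after the start of a gene in RefSeq (GRCm38.p6), and is given 5′ to 3′ on the strand of the gene. Fcgrt is shown as the member that rose, Fcer1g as the shared adaptor above the dim level, and Fcgr1 and Fcgr4 as dim members. Capitals mark the letters GAGGAA, a PU.1-type site, on either strand. The shorter core GGAA shared by ETS factors was not searched and is not marked.
Fcgrt (chr7:45103773-45104072, minus strand): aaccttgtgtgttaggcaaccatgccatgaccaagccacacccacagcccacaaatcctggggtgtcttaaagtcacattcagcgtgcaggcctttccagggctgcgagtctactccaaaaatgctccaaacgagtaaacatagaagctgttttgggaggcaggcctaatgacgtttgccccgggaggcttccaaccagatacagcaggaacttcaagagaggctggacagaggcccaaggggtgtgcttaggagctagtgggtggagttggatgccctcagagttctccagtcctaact
Fcer1g (chr1:171234300-171234599, minus strand): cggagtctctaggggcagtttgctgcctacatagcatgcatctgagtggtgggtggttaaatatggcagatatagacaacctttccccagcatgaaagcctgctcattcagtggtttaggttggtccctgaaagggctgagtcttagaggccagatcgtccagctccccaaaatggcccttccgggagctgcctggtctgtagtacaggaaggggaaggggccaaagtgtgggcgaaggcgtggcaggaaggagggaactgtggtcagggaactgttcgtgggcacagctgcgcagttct
Fcgr1 (chr3:96293920-96294219, minus strand): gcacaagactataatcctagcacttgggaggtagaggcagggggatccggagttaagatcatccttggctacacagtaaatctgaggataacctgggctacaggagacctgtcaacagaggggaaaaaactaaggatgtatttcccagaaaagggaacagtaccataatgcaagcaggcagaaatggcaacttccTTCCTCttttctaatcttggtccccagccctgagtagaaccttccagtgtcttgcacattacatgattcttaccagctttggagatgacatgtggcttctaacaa
Fcgr4 (chr1:171018676-171018975, plus strand): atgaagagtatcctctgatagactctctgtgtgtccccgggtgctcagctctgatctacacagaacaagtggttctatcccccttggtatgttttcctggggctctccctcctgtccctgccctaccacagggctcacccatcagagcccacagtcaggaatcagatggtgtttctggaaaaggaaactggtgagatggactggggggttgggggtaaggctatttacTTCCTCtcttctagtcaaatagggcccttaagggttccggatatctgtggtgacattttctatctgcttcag
The letters GAGGAA occurred in the start regions of 4 of the 7 genes, Fcgr1, Fcgr3, Fcgr4 and Fcer1a, and in 28.3% of all 32851 start regions of this length. Among these 4, Fcgr3, whose start region is not shown, lay above the dim level in both groups. The letters were not found in the windows of Fcgrt, Fcer1g or Fcgr2b. In Fcgr1 they began 55 bases before the start of the gene, and in Fcgr4 22 bases before it. Fcgr1 alone among the 7 held TTCNNNGAA, a STAT-type motif found in 8.3% of start regions. Fcgr4 alone held an interferon-type (ISRE) motif, found in 3.44% of them. TGANTCA, an AP-1-type motif, and GGGCGG, an Sp1-type motif, matched 0 of the 7 windows, against 7.81% and 35.7% of all start regions. Both strands were searched. Matches to different motifs were counted separately, also where they overlap. A match describes these letters only and shows no binding.

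Fcgrt, the FcRn heavy chain, had levels of 8.00, 8.06, 8.04 and 7.72 on transgenic replicates 1 to 4, against 7.43, 7.10, 7.37 and 7.15 on wild-type replicates 1 to 4. The groups did not overlap: the lowest transgenic array, replicate 4, exceeded the highest wild-type one. The means were 7.95 ± 0.16 in TG and 7.26 ± 0.16 in WT (SD, n = 4 each). The difference was 0.69 on the log2 scale (SE 0.13, 95% interval 0.42 to 0.97), a 1.62-fold higher level (1.33 to 1.96), with an adjusted p of 0.0263 over all genes in limma. An exact two-sided permutation test of this gene alone gave p = 0.0286, the smallest that 70 assignments can give. Every gene whose groups do not overlap (8.94% of all genes) has this same value, so it adds nothing to the lack of overlap. In pooled cells, more RNA per cell and more cells of a kind that holds it cannot be told apart.

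The direction of Fcgrt was the same in every alternative run, but the call was lost in 7 of the 8 fits with 1 array left out. With 1 array left out, the log2 difference ran from 0.64 to 0.77. It still passed limma's test without transgenic replicate 4 (0.77, adjusted p = 0.0187). Leaving out transgenic replicate 1, 2 or 3 ended the call, with limma's adjusted p at 0.0632, 0.0688 and 0.0641. Leaving out wild-type replicate 1, 2, 3 or 4 ended it too, at 0.0542, 0.0881, 0.0655 and 0.0768. Over all genes, 374 passed with all arrays, 379 without transgenic replicate 4, and 106 to 246 in the 7 other fits. Without variance moderation Fcgrt had an adjusted p of 0.101.

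**Figure D2:**
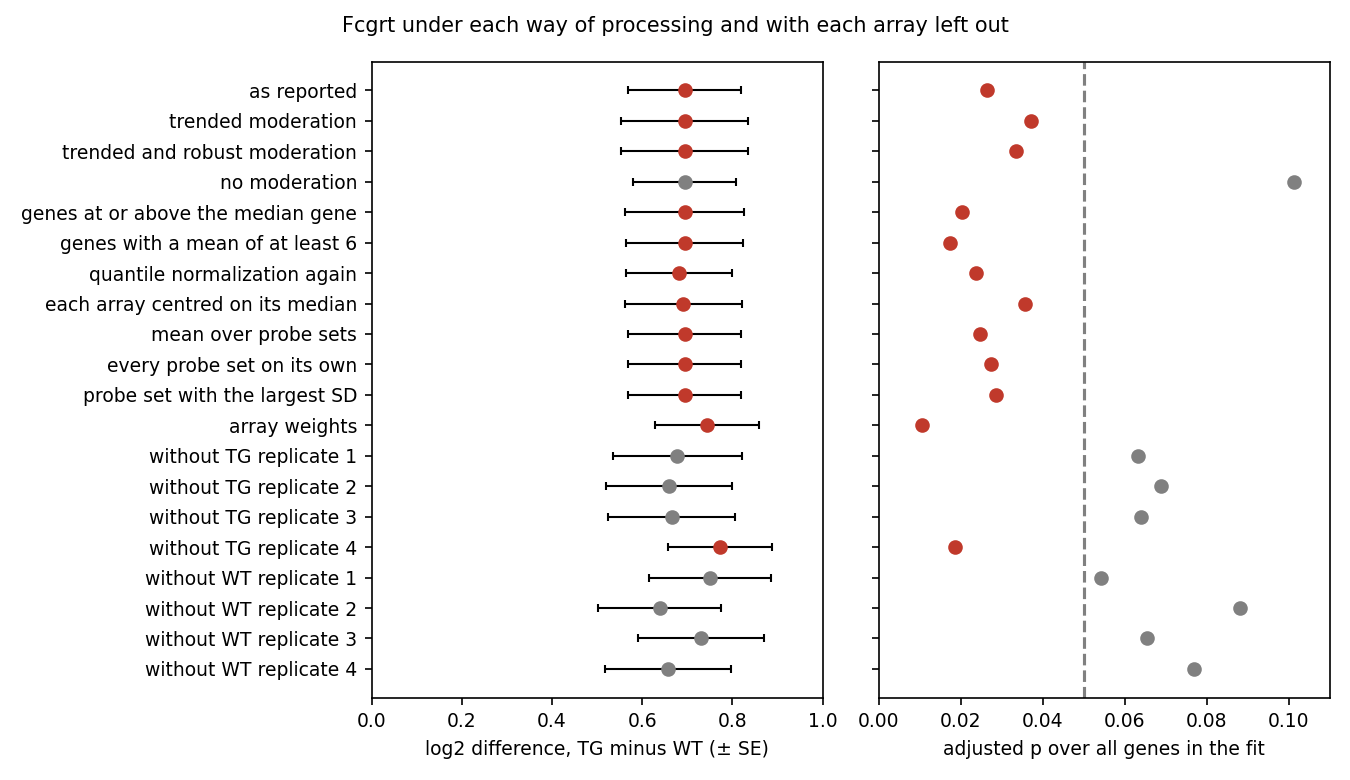
Log2 difference of Fcgrt, transgenic minus wild type, with its SE (left), and the adjusted p over the genes of that fit (right), for the reported fit, other ways of processing, and fits with 1 array left out. Red points lie below an adjusted p of 0.05 (dashed line). The replicate block, where Fcgrt also lost its call (adjusted p = 0.0630 in limma), and the threshold of 0.1 are not drawn. The difference stays between 0.64 and 0.77, while the adjusted p crosses 0.05 in 7 of the 8 fits with 1 array left out.

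The gene next to Fcgrt also rose. Rcn3, which encodes the calcium-binding protein reticulocalbin 3 of the endoplasmic reticulum, lies beside Fcgrt on chromosome 7, on the same strand. Its levels were 6.30, 6.32, 6.25 and 6.02 on transgenic replicates 1 to 4, against 5.52, 5.50, 5.44 and 5.40 on wild-type replicates 1 to 4. The groups did not overlap, transgenic replicate 4 was again the lowest of its group, and the wild-type level of 5.47 lay close to the dim level. The log2 difference was 0.76 (SE 0.11, adjusted p = 0.0101 in limma), and with 1 array left out it ran from 0.72 to 0.82 with adjusted p between 0.00709 and 0.0392. Of the 5 other nearest measured genes, 0 passed. Nosip was at -0.21 (SE 0.20), Prrg2 at -0.25 (SE 0.18), Mir150 at 0.03 (SE 0.18) and Snord35a at 0.10 (SE 0.33). Snord35b, a small nucleolar RNA, was at 0.71 with a wide SE of 0.42 and missed the threshold (limma's adjusted p = 0.535). Where the probes of either gene lie was not analysed here.

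**Figure D3:**
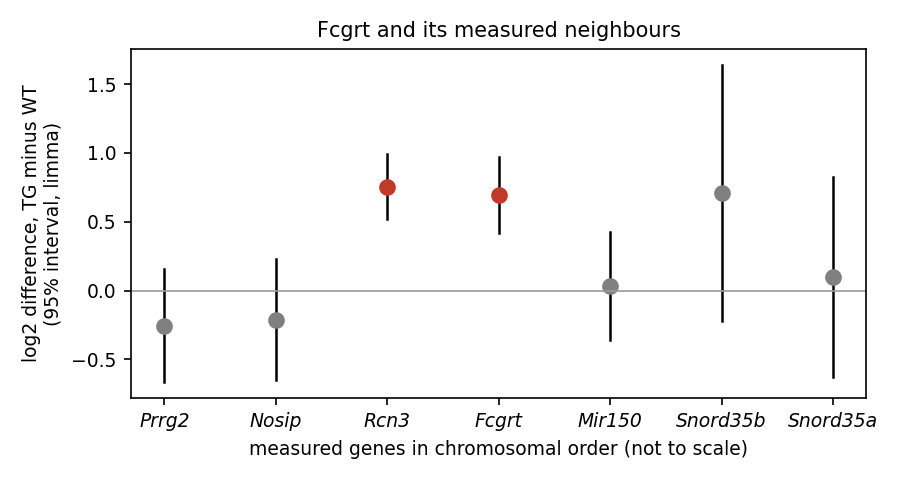
Log2 difference, transgenic minus wild type (y axis), of Fcgrt and the 3 measured genes on each side of it in chromosomal order (x axis, not to scale). Points are limma estimates and lines their 95% intervals. Rcn3 (0.76) and Fcgrt (0.69), in red, passed, and the other genes, in grey, did not.

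None of the measured genes of the partner and trafficking route of FcRn passed. B2m, which encodes beta-2-microglobulin, was at 13.89 ± 0.02 in TG and 13.91 ± 0.04 in WT (SD, n = 4 each). It held the highest value on every array, up to 13.95, and at such levels differences can be compressed. Of 9 measured genes of the FcRn partner and recycling route, 0 rose, 0 fell and 9 did not pass, with a median log2 difference of -0.02. The highest was Rab4a, a GTPase of early recycling endosomes (0.66, SE 0.40, adjusted p = 0.561 in limma). The lowest was Rab11a, a GTPase of recycling endosomes. Rab11a had levels of 8.46, 8.34, 8.38 and 8.39 in TG, against 8.61, 8.81, 8.77 and 8.88 in WT. Its groups did not overlap, but its difference of -0.38 (SE 0.10) had an adjusted p of 0.108 in limma.

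Fcer1g, the shared signalling adaptor, was far above the dim level on every array. It had levels of 10.79, 11.11, 10.98 and 10.49 on transgenic replicates 1 to 4, against 10.78, 10.64, 10.44 and 10.69 on wild-type replicates 1 to 4. Transgenic replicates 1, 2 and 3 exceeded the wild-type range and replicate 4 fell inside it, so the groups overlapped. The log2 difference was 0.20 (SE 0.15, 95% interval -0.12 to 0.53, adjusted p = 0.635 in limma). It was 0.32 without transgenic replicate 4 and 0.12 without transgenic replicate 2, and it did not pass in either fit. As a fold, the 95% interval ran from 0.919 to 1.45.

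The activating IgG receptors were low and did not pass. Fcgr1, the high-affinity receptor CD64, had levels of 4.52, 4.82, 4.42 and 4.45 in TG, against 4.72, 4.71, 4.55 and 4.35 in WT. It was dim on all 8 arrays, and its difference of -0.03 (SE 0.13, 95% interval -0.32 to 0.27) was smaller than the spread in either group. Fcgr3, the low-affinity receptor CD16, had levels of 5.64, 5.78, 5.55 and 6.23 in TG, against 5.59, 5.49, 5.73 and 6.34 in WT. Replicate 4 was the highest of both groups, and the difference was 0.01 (SE 0.21, 95% interval -0.45 to 0.47). The mean level of Fcgr3 lay above those of 96.8% of the olfactory and vomeronasal receptor genes. The adjusted p of Fcgr1 was 0.963 and that of Fcgr3 was 0.989 in limma.

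Fcgr4, the receptor CD16-2, was dim on every array and did not pass. Its levels were 3.89, 5.01, 4.08 and 3.98 on transgenic replicates 1 to 4, against 3.83, 3.66, 4.04 and 4.37 on wild-type replicates 1 to 4. Transgenic replicate 2 was high and the other 3 transgenic arrays lay within the wild-type range. The log2 difference was 0.26 (SE 0.25, adjusted p = 0.736 in limma), and without transgenic replicate 2 it was 0.01 (SE 0.17). Some lists of markers of other cells also had their highest mean on that array (monocytes, NK cells, plasmacytoid dendritic cells, cDC1, B cells and plasma cells), and others did not (macrophages, neutrophils, eosinophils, mast cells and basophils, and T cells). The mean log2 level of 11 monocyte markers was 7.07 there, against 6.03 to 6.63 on the other transgenic arrays and 5.71 to 6.26 in wild type. The mean of 10 NK cell markers was 7.44 there, against 6.17 to 6.60 on the other transgenic arrays and 5.87 to 7.10 in wild type. Their part in the level of Fcgr4 was not tested.

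Fcgr2b, the inhibitory receptor CD32B, lay around the dim level and did not pass. It had levels of 5.37, 5.51, 5.05 and 5.01 in TG, against 5.46, 5.45, 4.97 and 5.88 in WT. The groups overlapped, and wild-type replicates held both the highest and the lowest value. The difference was -0.21 (SE 0.19, 95% interval -0.63 to 0.22, adjusted p = 0.737 in limma). The balance of activating over inhibitory receptor can be described within each array as the log2 level of Fcgr3 minus that of Fcgr2b. It was 0.28, 0.26, 0.50 and 1.23 in TG, against 0.13, 0.04, 0.77 and 0.46 in WT, and the groups overlapped. Fcgr2b, Fcgr3 and Fcgr4 lie next to each other in the RefSeq gene order on chromosome 1. The extracellular parts of the first 2 are closely related, so how far their probe sets share signal is uncertain.

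Fcer1a, in mice mainly a gene of mast cells and basophils, was dim on every array. It had levels of 3.11, 3.15, 3.22 and 3.15 in TG, against 3.17, 3.16, 3.26 and 3.44 in WT. These levels lay near the median of 3.35 of the olfactory and vomeronasal receptor genes. Of the transgenic arrays, 3 lay below every wild-type array, by small steps, and the difference of -0.10 (SE 0.10) did not pass (adjusted p = 0.771 in limma). Of 16 mast cell and basophil markers, 14 were dim in both groups, including Ms4a2, the beta chain of the IgE receptor (4.44 in TG, 4.42 in WT), and Mcpt8 (4.29 in TG, 4.59 in WT). Kit, the receptor for stem cell factor, was the 1 of the 16 that rose (9.63 in TG, 8.70 in WT).

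**Figure D4:**
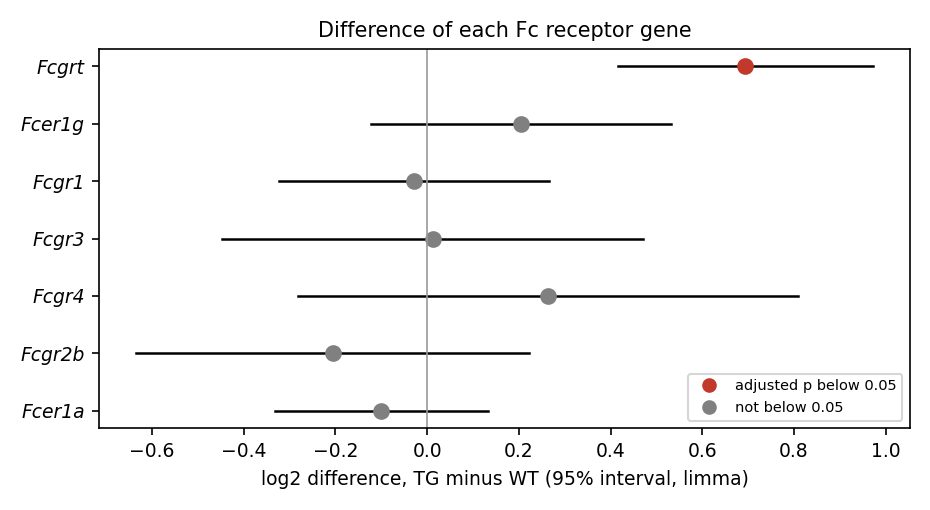
Log2 difference of each Fc receptor gene, transgenic minus wild type (x axis), as the limma estimate with its 95% interval. Fcgrt (0.69, interval 0.42 to 0.97) passed, and the intervals of the other 6 genes include 0.

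The genes around the receptors were read from 9 lists, against the share of 1.69% of all genes that passed. Of 13 other members of the Fc receptor family, 0 rose, 0 fell and 7 were dim in both groups. The highest of them was Fcrl5 (0.15, SE 0.16) and the lowest was Fcrl1 (-0.35, SE 0.22), both genes of B cells. The other measured signalling adaptors did not pass, and of these only Tyrobp encodes a protein with an ITAM. Tyrobp, which encodes DAP12, was at 12.50 ± 0.10 in TG and 12.47 ± 0.04 in WT (SD, n = 4 each), and Hcst, which encodes DAP10, had a difference of 0.27 (SE 0.24). Of 10 measured receptors that use the FcR gamma chain, 0 passed and 7 were dim in both groups. Among them were Cd300c2 at 0.70 (SE 0.29, adjusted p = 0.319 in limma), the highest, and Clec4n, which encodes dectin-2, at -0.63 (SE 0.28, adjusted p = 0.375), the lowest.

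Of 24 measured genes of activating signalling below the receptors, 0 passed. The median log2 difference was -0.17, against -0.00 over all genes tested, with 17 of 24 negative. Of the 24, 0 were dim in both groups, while all genes tested include many dim ones. The share of negative differences among genes of like level was not computed. The highest was Lat2, an adaptor of myeloid and B cells (0.73, SE 0.30, adjusted p = 0.320 in limma), and the lowest was Rac2, a GTPase of leukocytes (-0.72, SE 0.39, adjusted p = 0.488). The mean log2 level of this list was 8.22 on transgenic replicate 4, against 8.59 to 8.67 on the other transgenic arrays and 8.64 to 8.77 in wild type.

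On the inhibitory side 3 genes changed, Lair1 upward and Ptpn6 and Lilrb4a downward. Ptpn6, the phosphatase SHP-1, was the 1 of 6 measured phosphatases and Dok adaptors that fell. It had levels of 9.87, 9.82, 9.63 and 9.50 in TG, against 10.17, 10.27, 10.22 and 10.38 in WT. Its difference of -0.55 (SE 0.12, adjusted p = 0.0480 in limma) did not overlap between groups, but it passed in none of the 8 fits with 1 array left out (adjusted p 0.0608 to 0.127). Inpp5d, which encodes SHIP, the phosphatase recruited by Fcgr2b, was the highest of this list and did not pass (0.19, SE 0.15, adjusted p = 0.688). The median of the list was -0.24.

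Of 12 measured other inhibitory receptors, 1 rose, 1 fell and 10 did not pass, with a median of 0.18. Lilrb4a, an ITIM receptor of myeloid cells, had levels of 9.76, 9.59, 9.67 and 10.05 in TG, against 10.62, 10.97, 10.76 and 10.86 in WT. The groups did not overlap, and the difference was -1.03 (SE 0.13, adjusted p = 0.00684 in limma). It passed in all 8 fits with 1 array left out, and missed the threshold without variance moderation (adjusted p = 0.0691). Lair1, the collagen receptor LAIR-1, had levels of 9.52, 9.44, 9.72 and 8.46 in TG, against 8.19, 8.26, 8.23 and 7.90 in WT. Its difference was 1.14 (SE 0.24, adjusted p = 0.0469). It passed again only without transgenic replicate 4, the lowest of its group, where it was 1.41 (adjusted p = 0.00302), and not in the other 7 fits with 1 array left out (0.0983 to 0.123). Clec12a had the highest difference of the list, 1.33 (SE 0.29), and missed the threshold (adjusted p = 0.0503).

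**Figure D5:**
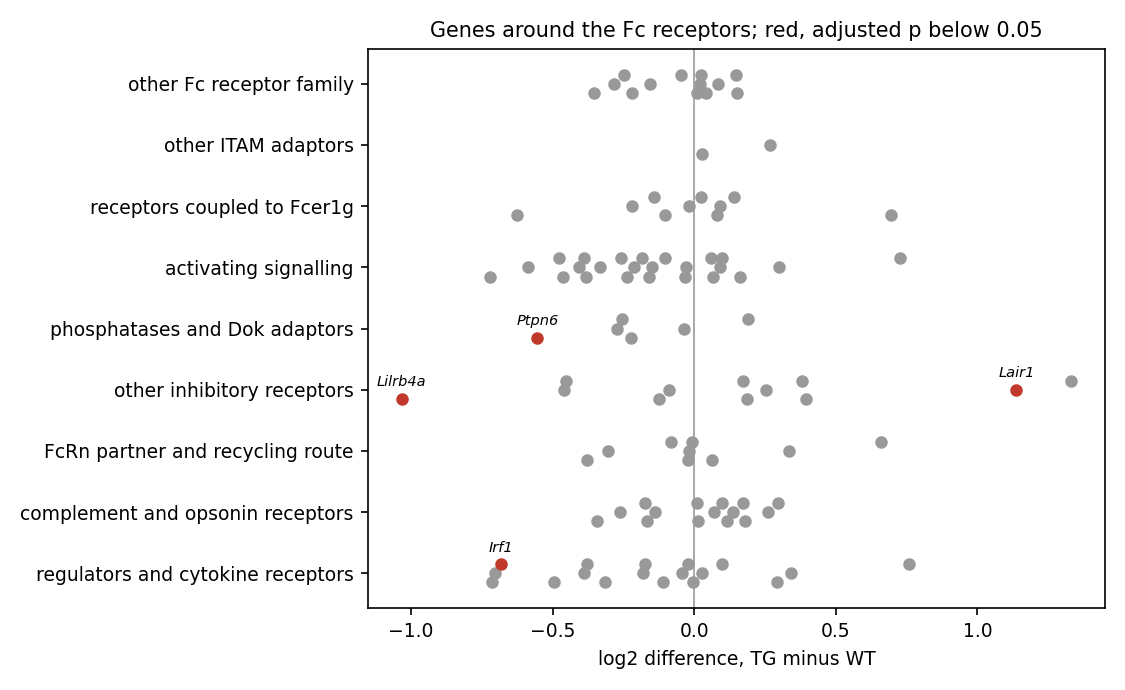
Log2 difference, transgenic minus wild type (x axis), of every measured gene of 9 lists around the Fc receptors (rows; points are spread vertically for legibility). Red points passed the test over all genes (Lilrb4a, Lair1, Ptpn6 and Irf1), grey points did not. The row of other ITAM adaptors holds Tyrobp and also Hcst, whose product has no ITAM.

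Among 18 measured genes known to act on Fc receptor expression in myeloid cells, 0 rose and 1 fell. They encode transcription factors, cytokine receptors and the complement receptor C5ar1. Irf1, an interferon-responsive transcription factor, had levels of 9.32, 8.96, 9.44 and 8.99 in TG, against 9.85, 9.79, 9.96 and 9.84 in WT. Its groups did not overlap, and the difference was -0.68 (SE 0.13, adjusted p = 0.0330 in limma). It kept passing only without transgenic replicate 3 among the 8 fits with 1 array left out (adjusted p = 0.0303; the next lowest was 0.0529). Stat6 was the lowest of the list (-0.71, SE 0.20, adjusted p = 0.113) and Cebpb the highest (0.76, SE 0.24, adjusted p = 0.169). Of 15 receptors and components of complement and opsonin uptake, which include C5ar1 again, 0 passed. C1qc was highest (0.30, SE 0.19) and C3ar1 lowest (-0.35, SE 0.17).

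Markers of cells that could carry Fc receptors into the sort were read beside these results. Of 14 measured macrophage markers 1 rose, Adgre1 (F4/80; 1.29, SE 0.19), and 6 were dim in both groups. Their mean log2 level was 5.96 to 6.14 in TG and 5.82 to 6.21 in WT. Of 11 measured monocyte markers 1 rose, Csf1r (1.16, SE 0.19), and their mean level was 6.03 to 7.07 in TG and 5.71 to 6.26 in WT. Of the macrophage markers 9 had a positive and 5 a negative log2 difference (median 0.03), and of the monocyte markers 8 and 3 (median 0.34). Of 10 NK cell markers 1 rose, Klrd1 (2.84-fold), and their mean level was 6.17 to 7.44 in TG and 5.87 to 7.10 in WT. Of these, 7 had a positive and 3 a negative log2 difference (median 0.20). Of 9 measured markers of plasmacytoid dendritic cells 1 rose, Bst2 (0.76, SE 0.13), with 7 positive and 2 negative (median 0.35). Their mean level was 6.60 to 7.68 in TG and 6.25 to 6.93 in WT. For Adgre1, Csf1r, Klrd1 and Bst2, as for 4% of all genes, all transgenic arrays exceeded all wild-type arrays. None of 10 B cell markers passed, with a mean level of 5.99 to 6.35 in TG and 5.97 to 6.34 in WT. Of 12 neutrophil markers 10 were dim in both groups, and 0 passed. The part of these cells in the level of any Fc receptor gene was not tested.

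Genes whose levels followed the same pattern over the 8 arrays were sought for the 3 members that varied most, Fcgr4 (SD over 8 arrays 0.42), Fcgrt (0.40) and Fcgr3 (0.32). Likeness was the root mean square distance between log2 profiles centred on their own means, over 8560 genes whose mean level was 6 or more. Nearest to Fcgrt were Thada (distance 0.10), Prkca, which encodes protein kinase C alpha (0.11), and Mccc1, a subunit of a mitochondrial carboxylase (0.13). Thada rose (0.62, adjusted p = 0.0329 in limma), while Prkca (0.57) and Mccc1 (0.54, adjusted p = 0.0677) did not pass. Nearest to Fcgr4 were Nup133 (0.12), Bambi (0.15) and Dgka (0.18). Nearest to Fcgr3 were Leng9 (0.12), Kbtbd2 (0.12) and Gjd3 (0.12). With so many candidates and 8 arrays, close matches arise readily, and these are descriptions.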

How the data were processed

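From each array's sample 2.5 ng of RNA was reverse transcribed, per the labels' protocols. The deposited values are log2 values per probe set, made by the authors; the submitters' processing notes name RMA and Partek, with no versions. RMA brings the arrays' distributions close to each other, so a shift of all genes would not be seen. The genome build is not given in the sources used here.

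Of 34390 probe sets, 23521 name 1 gene, and the set with the highest mean over 8 arrays was kept per gene, leaving 22180 genes. Transgenic minus wild type was tested in R 4.3.3 by limma 3.58.1 (lmFit, eBayes). P-values were adjusted by Benjamini-Hochberg over the 22180 genes, and those below 0.05 passed. The fit was tested first on simulated data with 200 changed genes and independent normal noise. Each gene had the same SD in both groups there. The deposited arrays had a median SD over genes of 0.21 in TG and 0.17 in WT, so rates on them may differ. In the simulation the fit recovered 29.8% of 1.5-fold, 74.4% of 2-fold and 93.6% of 3-fold changes, and 3.98% of its calls were false. A gene that did not pass may therefore still differ.

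Members, lists and tests were chosen with earlier results of these data known. The text names all members, and from each list around the receptors the genes that passed and the highest and lowest difference. Rcn3 and the other neighbours of Fcgrt, B2m and the marker genes named were chosen after their values were seen. No filter on signal was applied, and precision is limited by 4 arrays a group. The alternatives were other variance moderation, filters on dim genes, other normalization, other choices of probe set, array weights (statmod 1.5.0), a replicate block, another threshold, and leaving out each array. Each member has 1 probe set, so other choices of probe set changed only the other genes.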

Additional observations from a re-analysis of the deposited data

Results flagged for a closer look

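Of 14 sets of 4 arrays (7 genes in each genotype), 2 held an array far from the other 3, where chance gives about 1 in 20. Transgenic replicate 4 had 7.72 for Fcgrt, below the other transgenic arrays at 8.00 to 8.06 and above every wild-type array. Transgenic replicate 2 had 5.01 for Fcgr4, above the other transgenic arrays at 3.89 to 4.08.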

How the results depend on the processing

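Fcgrt had a log2 difference of 0.68 to 0.74 under the alternatives with all 8 arrays and of 0.64 to 0.77 with 1 array left out. Fcgr2b, Fcgr4, Fcer1g and Fcer1a kept their sign in every alternative run and passed in none. Without variance moderation Fcgrt (0.69) lost its call (limma's adjusted p = 0.101), 0 Fc receptor genes passed, and 35 genes passed in all, against 374. With the replicate number as a replicate block Fcgrt (0.69) also lost it (0.0630), 0 Fc receptor genes passed, and 187 genes passed in all. Over all genes, same-numbered arrays of the groups deviated together with correlations of -0.03, -0.03, 0.08 and -0.02, and 1 of 4 numbers matched best with itself. Such correlations over all genes cannot show whether the numbers pair the arrays for some genes. At an adjusted p below 0.1, 747 genes passed. With 1 array left out, 106 to 379 genes and 0 to 1 Fc receptor genes passed. Fcgr3 changed sign with array weights (-0.054) and when an array was left out (-0.13 to 0.20), and Fcgr1 when an array was left out (-0.12 to 0.018), both around 0. Ptpn6, Lair1 and Irf1 also lost their calls without variance moderation (adjusted p = 0.116, 0.215 and 0.120 in limma), Ptpn6 and Lair1 with each array centred on its median (0.0709 and 0.0663), and Ptpn6 and Irf1 with the replicate block (0.123 and 0.0645). Ptpn6 lost it as well with quantile normalization again (0.0575) and with the probe set of largest SD per gene (0.0504). Leaving out an array leaves fewer samples to the test, and the cause of the other losses was not tested. Fcgr1, Fcgr4 and Fcer1a were removed by the filters on dim genes, and Fcgr2b and Fcgr3 by the filter at a mean of 6, so they have no value there. For dim genes the array can miss a difference.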
